A study of Mus musculus with 7 samples.

Results

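The expression of 9 genes of homeostatic microglia was followed through a single-cell RNA sequencing study of mouse cortex: P2ry12, P2ry13, Gpr34, Cx3cr1, Csf1r, Tmem119, Siglech, Selplg and Sall1. They were taken by name from 19614 genes in all, and each of the 9 had a row in every one of the 7 libraries. Their levels were compared between microglia and perivascular macrophages, and by library, genotype and cortical area.

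Microglia are the resident macrophages of the brain parenchyma, and perivascular macrophages lie along its vessels. Microglia sense nucleotides through P2RY12 and fractalkine through CX3CR1, and depend for survival on CSF1R, the receptor of CSF1 and IL-34. Their identity is held by TGF-beta signalling and the transcription factor SALL1, and these genes are known to fall when microglia are activated or cultured.

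The ventromedial prefrontal cortex (PFC) was sampled in 3 libraries of the DTA genotype (Opn4-Cre/+; Brn3b-zDTA/+) and 2 of the CTRL genotype (Opn4-Cre/+; Brn3b-+/+). The motor cortex (MC) was sampled in 1 DTA and 1 CTRL library. All mice were of strain B6129SF1/J, at postnatal day 30, housed with 12 h of light and 12 h of dark, and all carried Opn4-Cre. The toxin gene of DTA mice (diphtheria toxin subunit A) should kill retinal ganglion cells that express both Opn4 and Brn3b. Those cells lie in the retina, which was not sampled, and the targeted loci were not analysed here. The labels describe the brain taken for each sample and no litter or day, so p-values measure the spread between these libraries only.

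Of 32985 deposited cells, the sum of the cells stated in the series' design, 31869 remained after doublet calls were removed, and 2057 of them were microglia-like and 183 perivascular macrophage-like. The members were kept out of clustering and naming. Microglia formed 2 clusters with 16 of 16 markers detected, and perivascular macrophages 1 cluster with 12 of 12, among them Mrc1, Cd163 and Lyve1. The perivascular macrophage cluster also detected 11 of the 16 microglial markers, a list that holds general macrophage genes such as Tyrobp and C1qa. Libraries held 139 to 584 microglia with 151100 to 933903 unique molecular identifiers (UMIs, each a captured transcript), and 10 to 63 perivascular macrophages with 14678 to 105699 UMIs. Pairs of libraries shared 7 to 92 cell barcodes.

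UMIs per excitatory neuron separated PFC DTA replicate 2, PFC CTRL replicate 1 and MC DTA, called deep here, from the 4 shallow libraries. An excitatory neuron held a median of 11571 to 15841.5 UMIs in the deep and 3094 to 5412 in the shallow libraries. Microglia did not split in this way. Their median was 1812 UMIs per cell in PFC CTRL replicate 1 (deep) and 1979.5 in PFC DTA replicate 3 (shallow). PFC DTA replicate 3 stood apart in microglia. There, 19 activation and dissociation genes summed to 42287 CPM, against 10186 to 18780 in the other 6 libraries. The chemokine genes Ccl4 (17221 CPM) and Ccl3 (11680.3 CPM) were the largest parts of that sum. Fos, Jun and Nfkbia of the same list were at their lowest microglial level there. CPM stands for UMIs of a gene scaled to the total of its cell class in a library, as counts per 1e6. Each molecule is counted at its 3′ end, so levels are not divided by gene length, and genes differ in how well they are captured.

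P2ry12 and P2ry13, which encode receptors for adenine nucleotides, are neighbours on the minus strand of chromosome 3 (GRCm38, GENCODE vM21), at chr3:59216272-59262871 and chr3:59207892-59210882. Both lie inside Med12l, which runs on the other strand. Gpr34, a receptor for lysophosphatidylserine, lies at chrX:13632089-13640858 inside Cask, also on the opposite strand. The annotated model of Cx3cr1 (chr9:119901616-120069879, minus strand) overlaps 9 genes, of which Gorasp1, Csrnp1 and Xirp1 share its strand. The sources used here do not give whether counting used strand, so reads at these overlaps may not be separable. Tmem119 (chr5:113793729-113800516) and Selplg (chr5:113818536-113832644) are neighbours on chromosome 5. Siglech (chr7:55768178-55778925) and Sall1 (chr8:89027235-89044162) overlap no other annotated gene.

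RefSeq promoter windows (GRCm38.p6, 250 bases before to 50 after a start) were searched for P2ry12, P2ry13, Cx3cr1, Siglech and Sall1, in 7 windows. Csf1r was left out of this search, and no window was found for Tmem119, Gpr34 and Selplg. The windows of 4 receptors are shown because perivascular macrophages held between 5.17% (P2ry12) and 37.9% (P2ry13) of their microglial level. Capitals mark GAGGAA or its reverse complement TTCCTC, a form of the letters bound by the myeloid factor PU.1. Shorter or other forms were not searched and are not marked. They are chr3:59262936-59263235, chr3:59210833-59211132 and chr9:120068247-120068546 on the minus strand, and chr7:55767934-55768233 on the plus strand, in the order below.
P2ry12: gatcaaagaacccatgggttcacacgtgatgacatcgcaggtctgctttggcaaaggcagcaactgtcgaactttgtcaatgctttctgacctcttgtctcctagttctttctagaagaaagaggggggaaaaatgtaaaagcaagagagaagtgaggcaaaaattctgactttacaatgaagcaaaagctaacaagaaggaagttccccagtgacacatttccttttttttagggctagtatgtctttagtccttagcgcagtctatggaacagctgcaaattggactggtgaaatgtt
P2ry13: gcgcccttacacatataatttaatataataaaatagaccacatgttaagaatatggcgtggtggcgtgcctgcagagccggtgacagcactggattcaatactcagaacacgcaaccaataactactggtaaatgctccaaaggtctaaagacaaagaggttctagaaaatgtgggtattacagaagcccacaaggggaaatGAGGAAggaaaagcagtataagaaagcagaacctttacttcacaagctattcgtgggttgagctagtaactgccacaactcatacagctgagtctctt
Cx3cr1: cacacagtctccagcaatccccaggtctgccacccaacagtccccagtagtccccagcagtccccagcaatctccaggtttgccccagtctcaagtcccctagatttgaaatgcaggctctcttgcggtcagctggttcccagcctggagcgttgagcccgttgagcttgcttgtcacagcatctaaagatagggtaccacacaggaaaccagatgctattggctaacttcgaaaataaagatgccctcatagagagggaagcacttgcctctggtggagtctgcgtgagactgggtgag
Siglech: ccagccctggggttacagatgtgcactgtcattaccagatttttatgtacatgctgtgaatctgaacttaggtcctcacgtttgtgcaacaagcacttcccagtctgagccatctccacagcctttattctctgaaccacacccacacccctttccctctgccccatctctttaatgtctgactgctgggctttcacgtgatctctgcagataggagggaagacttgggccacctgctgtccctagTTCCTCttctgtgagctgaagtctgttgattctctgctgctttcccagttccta
On either strand, these letters stood in 2 of the 7 windows, those of P2ry13 and Siglech. They stood in 9289 of 32851 windows over all genes (28.3%). A match describes letters only, and a window without one says nothing of the factor.

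Microglia stood above perivascular macrophages for all 9 members in 7 of 7 libraries, and 8 of them could be fitted. The 9th, Sall1, reached the filter on low counts in 6 microglia libraries and 0 perivascular macrophage libraries, so it was not fitted. In an edgeR fit with library as a block, 7 members were at least 2-fold higher in microglia with no overlap between the classes' libraries. Of all 1866 genes fitted, 105 (5.63%) met that rule. In perivascular macrophages alone, Cx3cr1 and Csf1r reached the filter of 77.9 CPM (10 counts at the median total) in all 7 libraries. The other 6 fitted members passed through microglia, where they are high. For Tmem119 (0 to 5 UMIs per perivascular macrophage library) and Selplg (0 to 6 UMIs) the filter fixed the direction, so the count of 7 is a description. These values compare clusters of the same cells, so no p-value is given.

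**Figure D1:**
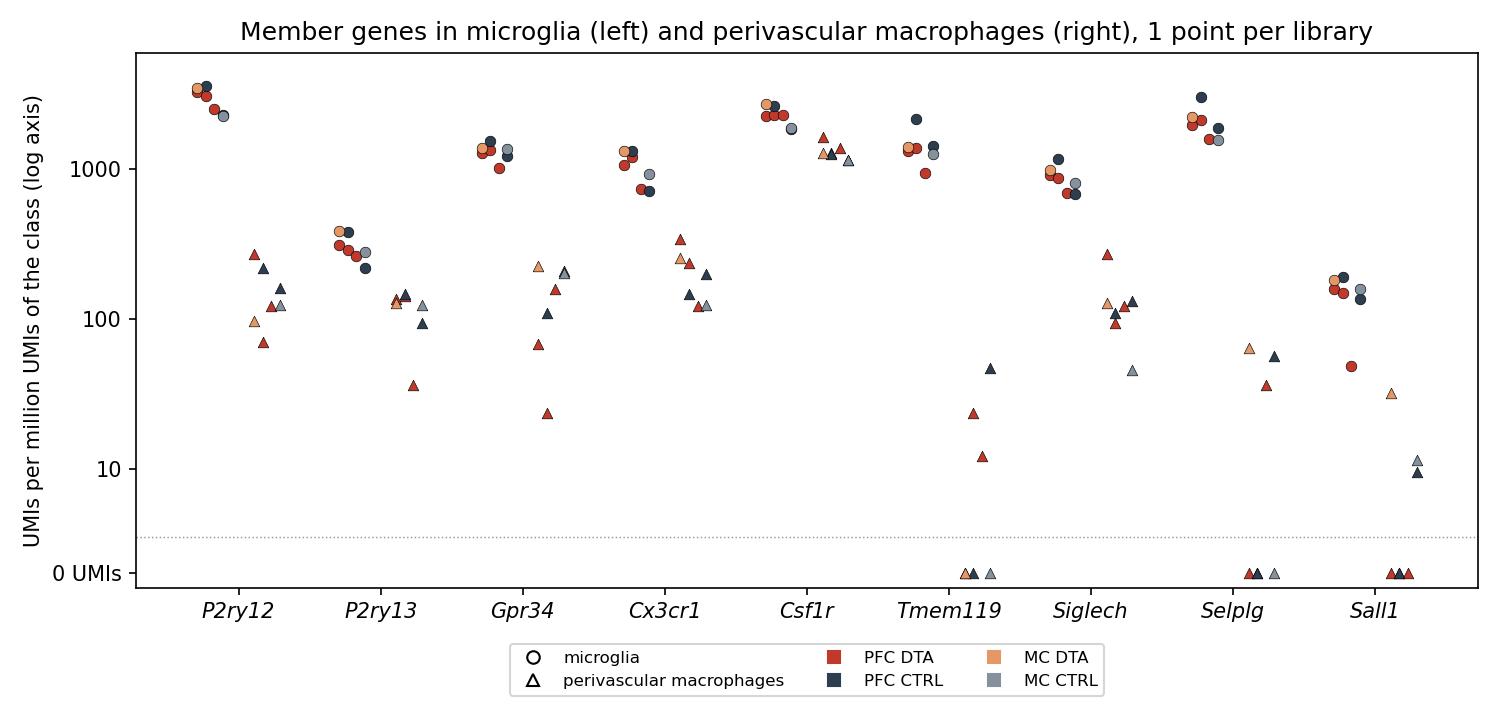
Level of each member in CPM (log axis, libraries without a UMI on the line marked 0 UMIs) in microglia (circles, left) and perivascular macrophages (triangles, right), 1 point per library, coloured by group. Csf1r lies between 1849.9 and 2734 CPM in microglia and between 1154 and 1635 CPM in perivascular macrophages. Tmem119, Selplg and Sall1 each have no UMI in 4 of 7 perivascular macrophage libraries, not the same 4 for each.

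P2ry12 averaged 2942 ± 564 CPM in microglia and 152 ± 71.2 CPM in perivascular macrophages (SD, n = 7 libraries each), a log2 fold change of 4.25 (SE 0.16). Its neighbour P2ry13 differed much less, with 304 ± 61.5 CPM in microglia and 115 ± 38.7 CPM in perivascular macrophages (log2 fold change 1.40, SE 0.23). In perivascular macrophages P2ry12 rested on 3 to 17 UMIs per library and P2ry13 on 2 to 11, 40 over all libraries. On mean CPM, perivascular macrophages thus held 5.17% of the microglial level of P2ry12 and 37.9% of that of P2ry13. Gpr34 lay between them, at 1313 ± 163 CPM in microglia and 142 ± 77.4 CPM in perivascular macrophages (log2 fold change 2.95, SE 0.19). In perivascular macrophages Gpr34 rested on 1 to 22 UMIs per library, and its libraries spanned 23.6 to 225 CPM.

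Cx3cr1, the fractalkine receptor, averaged 1046 ± 255 CPM in microglia and 204 ± 80.6 CPM in perivascular macrophages (log2 fold change 2.37, SE 0.17). Csf1r, the growth factor receptor that macrophages share (chromosome 18), had the smallest fold difference between the classes of the 8 members fitted. It had 2270.0, 2327 and 2310.4 CPM in PFC DTA microglia, 2636 and 1849.9 CPM in PFC CTRL, 2734 CPM in MC DTA and 1903 CPM in MC CTRL. In perivascular macrophages it had 1635, 1296 and 1384 CPM in PFC DTA, 1277 and 1154 CPM in PFC CTRL, 1287 CPM in MC DTA and 1159 CPM in MC CTRL. The lowest microglial library lay above the highest perivascular macrophage library, but the difference stayed under 2-fold, at 1.72-fold (log2 0.78, SE 0.11).

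The surface molecules split. Tmem119, a transmembrane protein used to mark microglia, had 5600 UMIs in microglia and 7 in perivascular macrophages over all libraries, a ratio of pooled levels of 77.7 (95% interval 37.7 to 193). Selplg, which encodes the P-selectin ligand PSGL-1, had 8181 UMIs in microglia and 11 in perivascular macrophages, a ratio of 72.2 (40.4 to 145). Such intervals cover counting error only. Each gene had no UMI in 4 of 7 perivascular macrophage libraries, which were not the same 4 for both. Siglech, a lectin that signals through the adaptor Tyrobp, was less far apart, with 878 ± 170 CPM in microglia and 129 ± 69.8 CPM in perivascular macrophages (log2 fold change 2.83, SE 0.20). Sall1 had 583 UMIs in microglia and 3 in perivascular macrophages, a ratio of 18.9 (6.43 to 91.8).

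The make-up of the set differed with these gaps. P2ry12 gave 23.7 ± 1.68% of a library's member UMIs in microglia and 7.12 ± 2.68% in perivascular macrophages (SD, n = 7). Csf1r gave 18.6 ± 2.02% in microglia and 62.9 ± 5.20% in perivascular macrophages. Tmem119 gave 11.4 ± 1.71% in microglia and 0.593 ± 0.888% in perivascular macrophages. Perivascular macrophages held 0.835% of the microglial level of Tmem119, 14.7% for Siglech, 19.5% for Cx3cr1 and 57.3% for Csf1r, and the part of free RNA in these levels was not tested.

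Cells thinned to 1000 UMIs gave the same contrast cell by cell, after 411 microglia, 8 perivascular macrophages and 1046 excitatory neurons below that depth were left out. P2ry12 was read in 90.2% of 1646 microglia (Clopper-Pearson 95% interval 88.7 to 91.6%), 10.9% of 175 perivascular macrophages (6.66 to 16.4%) and 0.281% of 11754 excitatory neurons (0.193 to 0.394%), which should lack it. Csf1r was read in 85.8% of microglia (84.1 to 87.5%), 74.9% of perivascular macrophages (67.8 to 81.1%) and 0.187% of excitatory neurons (0.117 to 0.283%). Tmem119 was read in 69.5% of microglia (67.2 to 71.7%), 1.71% of perivascular macrophages (0.355 to 4.93%) and 0.196% of excitatory neurons (0.124 to 0.293%). These intervals pool cells of 7 libraries and hold no spread between them: the 3 perivascular macrophages with Tmem119 came from PFC CTRL replicate 2 (2 cells) and PFC DTA replicate 3 (1 cell). Gpr34 was read in 70.3% of microglia, 18.9% of perivascular macrophages and 0.187% of excitatory neurons. Cx3cr1 was read in 59.7, 21.1 and 0.196% of cells of these classes, and P2ry13 in 24.7, 10.9 and 0.00851%. Siglech was read in 57.3, 9.71 and 0.170%, Selplg in 81.0, 3.43 and 0.136%, and Sall1 in 12.3, 1.14 and 0.102%. P2ry12 and P2ry13 were each read in 19 perivascular macrophages. Without thinning, P2ry12 was read in 93.2% of microglia, 23.0% of perivascular macrophages and 1.52% of excitatory neurons. Median depths per library were then 1006 to 3226.5, 1050 to 3497 and 3094 to 15841.5 UMIs per cell in these classes.

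**Figure D2:**
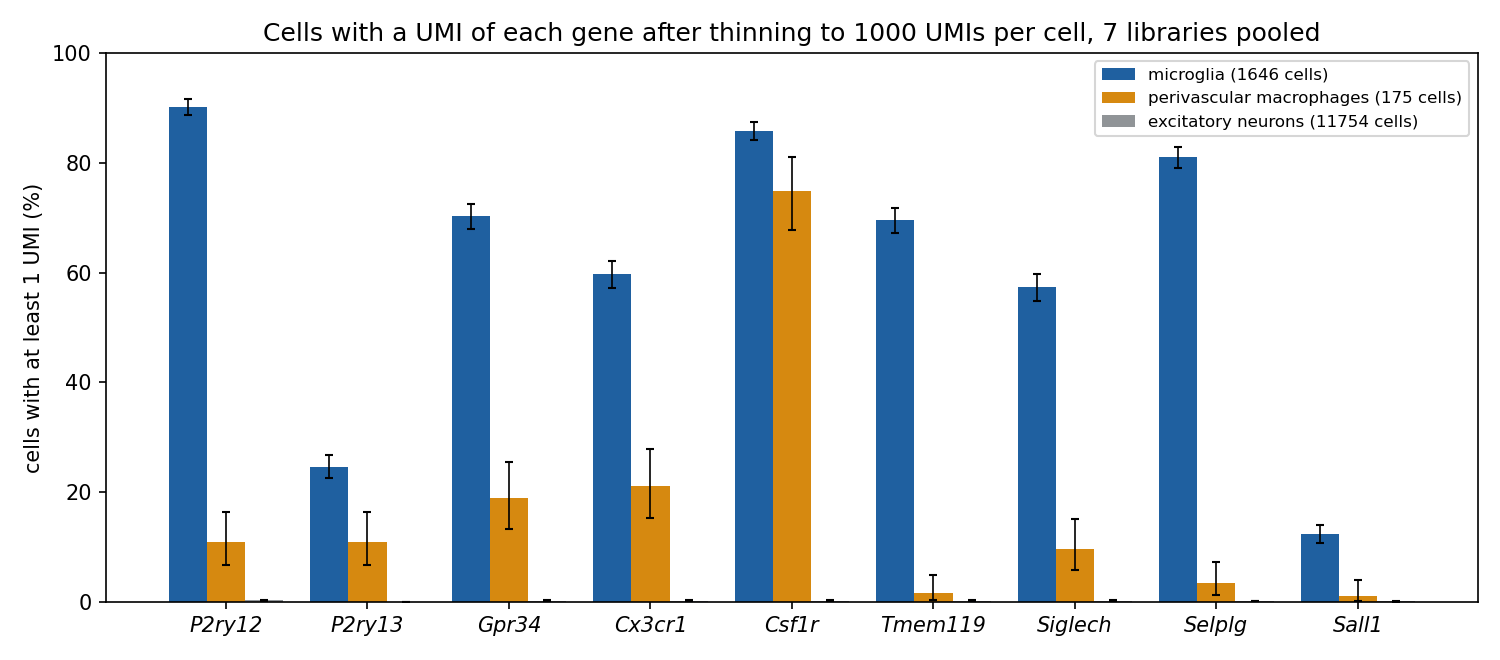
Percentage of cells with at least 1 UMI of each member after thinning to 1000 UMIs per cell, in microglia, perivascular macrophages and excitatory neurons, with exact 95% binomial intervals over pooled cells. Csf1r reaches 85.8% in microglia and 74.9% in perivascular macrophages, and Tmem119 reaches 69.5% and 1.71%.

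The members were read together in microglia. At 1000 UMIs, 76.2% of microglia held at least 5 of the 9 members, against 0.571% of perivascular macrophages and 0 of 11754 excitatory neurons, which allows a share of up to 0.0255%. The median cell held 6 members in microglia, 1 in perivascular macrophages and 0 in excitatory neurons.

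Over the 11 classes with at least 10 cells in every library, microglia had the highest mean level of each member. Perivascular macrophages came second for all but Sall1. Outside both macrophage classes, no member but Sall1 averaged above 10.7 CPM, the level of Selplg in endothelial cells. Microglia held 91.1 to 96.0% of all UMIs of these 8 members, and perivascular macrophages held 4.90% of those of Csf1r.

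Sall1, a zinc-finger transcription factor also known from neural progenitors and kidney, departed from the others. Microglia held 45.7% of its 1275 UMIs. Astrocytes came second, with 40.9 ± 13.2 CPM against 146 ± 46.8 CPM in microglia (SD, n = 7), which is 28.0% of the microglial level and at most 0.312% for any other member. Sall1 was higher in microglia than in astrocytes in all 7 libraries, most narrowly in PFC DTA replicate 3 with 48.6 CPM in microglia and 26.1 CPM in astrocytes. Oligodendrocytes (13.6 ± 3.74 CPM) and pericytes (11.7 ± 11.7 CPM) followed and did not differ beyond their spread, and excitatory neurons stood at 0.0665 to 0.605 CPM.

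**Figure D3:**
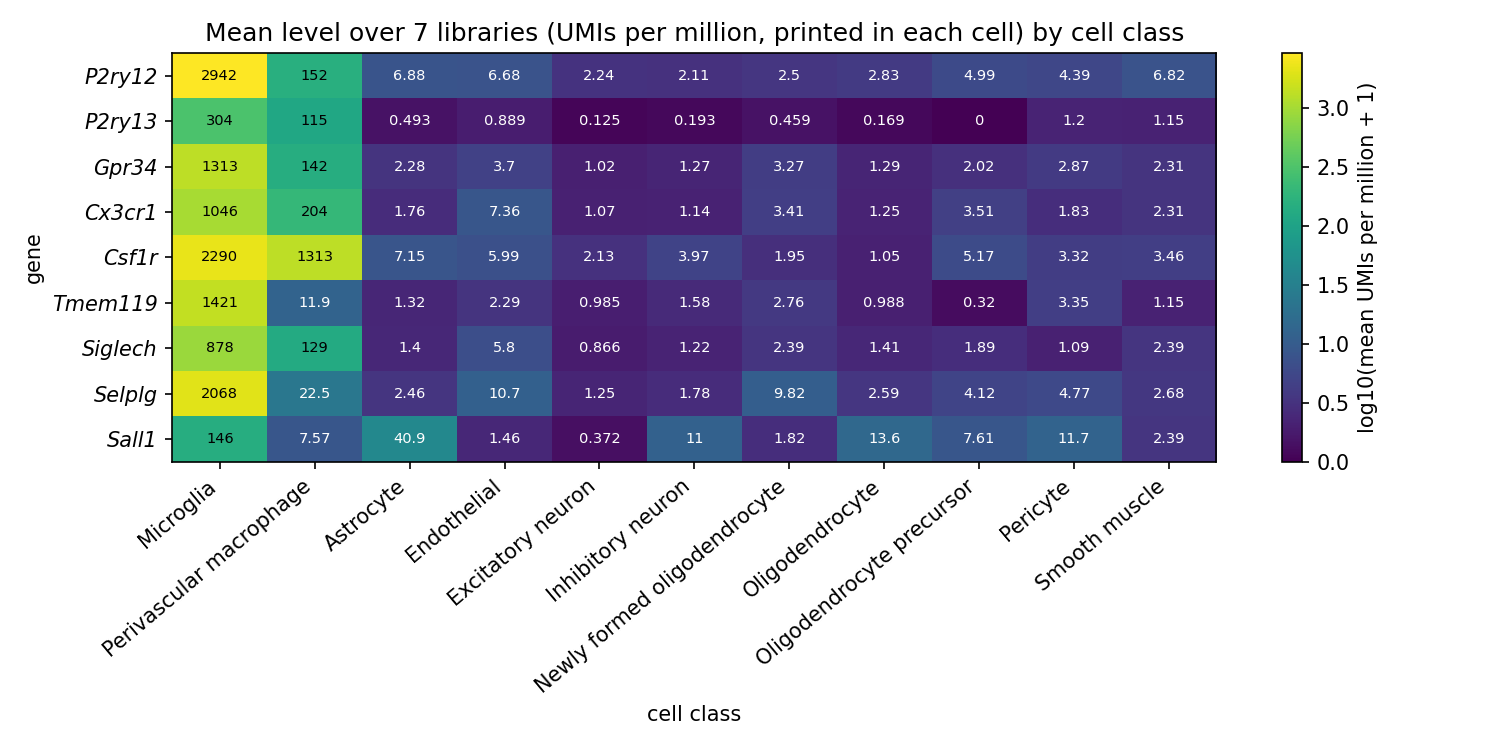
Mean level of the 9 members in 11 cell classes (rows are genes, columns classes, cells give mean CPM over 7 libraries). Microglia hold the highest value in every row, and Sall1 is the member with a second level in astrocytes, at 40.9 CPM.

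The 77 sums of class and library were also used to rank all 15791 genes by likeness to the members' mean, as Pearson's r of log2(CPM + 1), which share libraries and depth. Among the genes most alike were Ctsd (a lysosomal protease, r = 0.94), Mpeg1 (perforin-2, 0.94), Tnfrsf13b (0.93) and Cd300c2 (0.93). Among the members themselves, r with the mean of the other 8 was highest for Gpr34, Cx3cr1 and P2ry12 (each 0.94) and lowest for Selplg (0.79) and Sall1 (0.48).

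Other gene lists placed the members in context, on the same rule of 2-fold and no overlap. Of 17 further microglial signature genes fitted, 11 were higher in microglia and 0 lower (median log2 fold change 1.59), but many of these named the clusters. Sparc, which encodes a matricellular protein, averaged 2743 CPM in microglia and 50.1 CPM in perivascular macrophages, and its highest class mean was 3879 CPM, in the endothelial class. Of 5 partners of the members fitted, 1 was higher, Tgfbr1, the TGF-beta type I receptor, with 618 CPM in microglia and 90.0 CPM in perivascular macrophages. Of 8 lineage factors, 2 were higher, and Spi1, which encodes PU.1, stood at 576 CPM in microglia and 553 CPM in perivascular macrophages. Of 17 activation and dissociation genes 0 were higher and 1 was lower, and of 5 disease-associated genes 2 were higher and 2 lower, with Apoe at 940.3 CPM in microglia and 50349.5 CPM in perivascular macrophages. All 11 perivascular macrophage genes fitted were lower in microglia, as their use in naming fixed.

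The 9 members were next compared between the genotypes in PFC microglia. edgeR's quasi-likelihood test called 0 of 6598 genes at an adjusted p under 0.05 (0%), with 114 genes at an unadjusted p under 0.05, and DESeq2 called 0. Of the members, 4 were fitted higher and 5 lower in DTA, 0 of them at an unadjusted p under 0.05. By mean CPM, 2 (P2ry12 and Csf1r) were higher and 7 lower, as Cx3cr1 and P2ry13 had a positive fitted change but a lower mean in DTA. The members' median log2 fold change was -0.068, against -0.047 over all genes.

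**Figure D4:**
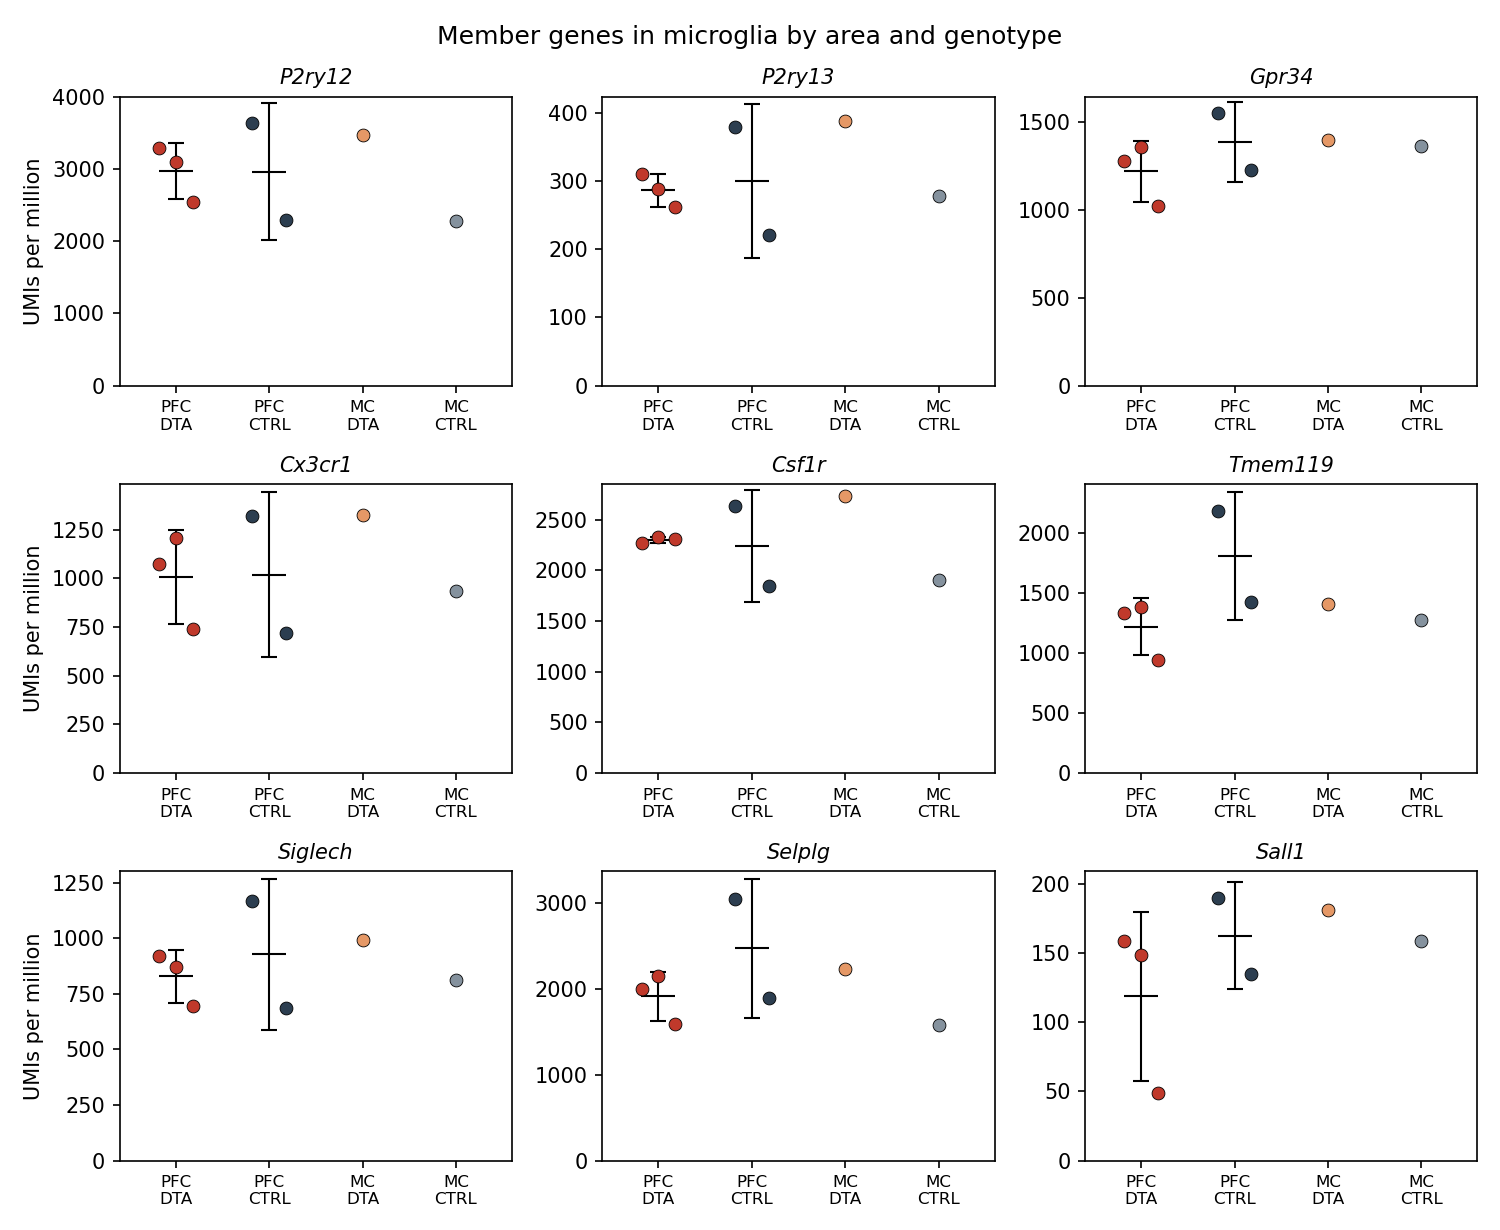
Level of each member in microglia (CPM) by group, from left PFC DTA, PFC CTRL, MC DTA and MC CTRL, 1 point per library, bars at the mean with SD where a group has several libraries. The PFC DTA libraries of Csf1r lie at 2270.0 to 2327 CPM, between the PFC CTRL libraries at 1849.9 and 2636 CPM.

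P2ry12 had 3283, 3090.3 and 2538 CPM in PFC DTA microglia, against 3631 and 2295 CPM in PFC CTRL. The DTA libraries lay between the CTRL libraries, and the log2 fold change was 0.10 (95% interval -0.75 to 0.95). P2ry13 had 311, 288 and 263 CPM in DTA, against 380.3 and 221 CPM in CTRL (log2 0.035, -0.69 to 0.76). Gpr34 had 1277, 1356 and 1023 CPM in DTA, against 1548 and 1226 CPM in CTRL (log2 -0.082, -0.83 to 0.67). Cx3cr1 had 1072, 1209 and 741 CPM in DTA, against 1319 and 720.0 CPM in CTRL (log2 0.080, -0.80 to 0.96). For all 4 of these receptors the genotypes overlapped.

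Csf1r averaged 2302 ± 29.2 CPM in DTA and 2243 ± 556 CPM in CTRL (SD, n = 3 and 2), a log2 fold change of 0.14 (-0.65 to 0.92). Tmem119 had 1330.2, 1380.2 and 945 CPM in DTA, against 2181 and 1427 CPM in CTRL. It was the member whose DTA libraries all lay below both CTRL libraries, as those of 905 of the 6598 genes did (13.7%). The DTA libraries lay above both CTRL libraries for 0 members and 226 genes (3.43%). Its log2 fold change of -0.47 had an interval of -1.28 to 0.35 (edgeR adjusted p = 0.9996). Siglech averaged 829 ± 119 CPM in DTA and 928 ± 339 CPM in CTRL (log2 -0.068, -0.87 to 0.73). Selplg averaged 1909.6 ± 287 CPM in DTA and 2467 ± 809.7 CPM in CTRL (log2 -0.27, -1.11 to 0.56). The intervals of all 9 members held 0.

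Sall1 had 159, 149 and 48.6 CPM in DTA, against 190.2 and 135 CPM in CTRL (log2 -0.37, -1.39 to 0.65). The low value is that of PFC DTA replicate 3, with 25 UMIs, where Tmem119 and Gpr34 also had their lowest level of the 7 libraries. Without that library the log2 fold change of Sall1 was 0.051. In the same library Ccl4 and Ccl3, chemokine genes of activated microglia, had 17221 and 11680.3 CPM. Fos (321 CPM) and Jun (370 CPM) of the same list were at their lowest of the 7 libraries there. In the microglial clusters of PFC DTA replicate 3, activation and dissociation genes summed to 47088 and 26082 CPM. The member sums there were 10926 and 7548 CPM, in the same order. The part of activation or dissociation in the members' levels was not tested.

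The summed level of the 9 members in microglia was 12614, 12816 and 10154 CPM in PFC DTA and 16093 and 10457 CPM in PFC CTRL. Within the libraries deep in excitatory neurons it was 12816 CPM in DTA and 16093 CPM in CTRL. Within the shallow ones it was 12614 and 10154 CPM in DTA and 10457 CPM in CTRL. Markers of excitatory neurons (6 genes) summed to 126, 92.1 and 333 CPM in the DTA microglia and to 68.3 and 347 CPM in the CTRL microglia. The 2 PFC libraries with the lowest member sums had the highest neuronal sums, and the part of neuronal RNA in the members' levels was not tested. Markers of oligodendrocytes (6 genes) summed to 265, 88.9 and 420.1 CPM in DTA and 149 and 357 CPM in CTRL. Markers of perivascular macrophages (12 genes, 6 to 8 of them at 0) summed to 86.0 to 128 CPM in DTA and 112 to 261 CPM in CTRL microglia.

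The share of cells read for each member gave no smaller p than 0.2 between the PFC genotypes (exact two-sided permutation test over libraries, where 0.1 is the smallest possible). That p belonged to Gpr34, read in 65.6 ± 2.43% of DTA microglia and 73.2 ± 6.55% of CTRL microglia (SD, n = 3 and 2). Microglia made up 5.76 ± 1.94% of cells in DTA and 7.59 ± 1.98% in CTRL (exact permutation p = 0.4), and perivascular macrophages 0.448 ± 0.105% in DTA and 0.595 ± 0.102% in CTRL (exact permutation p = 0.4). Cells in unnamed clusters made up 41.6% of PFC DTA replicate 3, against 3.29 to 9.03% of the other 6 libraries. Among named cells, microglia made up 7.06 ± 1.28% in DTA and 7.89 ± 1.996% in CTRL (exact permutation p = 0.6).

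No list of related genes had a called member in this comparison either. Of 20 further signature genes, 7 were fitted higher and 13 lower in DTA (median log2 -0.048). Of 8 partners, 7 were higher and 1 lower. They were led by Csf1, a ligand of CSF1R, at 19.9, 19.3 and 206 CPM in DTA and 5.94 and 7.66 CPM in CTRL. Csf1 was near the floor: 3 UMIs equal 19.9 CPM in PFC DTA replicate 1 and 8.91 CPM in PFC CTRL replicate 1. Csf1 also stands in the disease-associated list, so both counts hold it. Of 18 activation and dissociation genes, 15 were higher and 3 lower (median 0.58), among them Cxcl2 (log2 1.94, SE 0.50, edgeR adjusted p = 0.9996). All 7 disease-associated genes tested were higher (median 0.46), and of 8 lineage factors 5 were higher and 3 lower. Several of these counts rested on PFC DTA replicate 3. Without it, partners were 4 higher and 4 lower, signature genes 12 higher and 8 lower, and the members 7 higher and 2 lower (median 0.066). The disease-associated median was then 0.28, with 7 of 7 higher, and the activation median 0.43, with 17 of 18 higher. Over all genes, 2931 of 6598 were higher with all PFC libraries and 2815 of 6406 without that library. No list had a called gene in either setting.

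**Figure D5:**
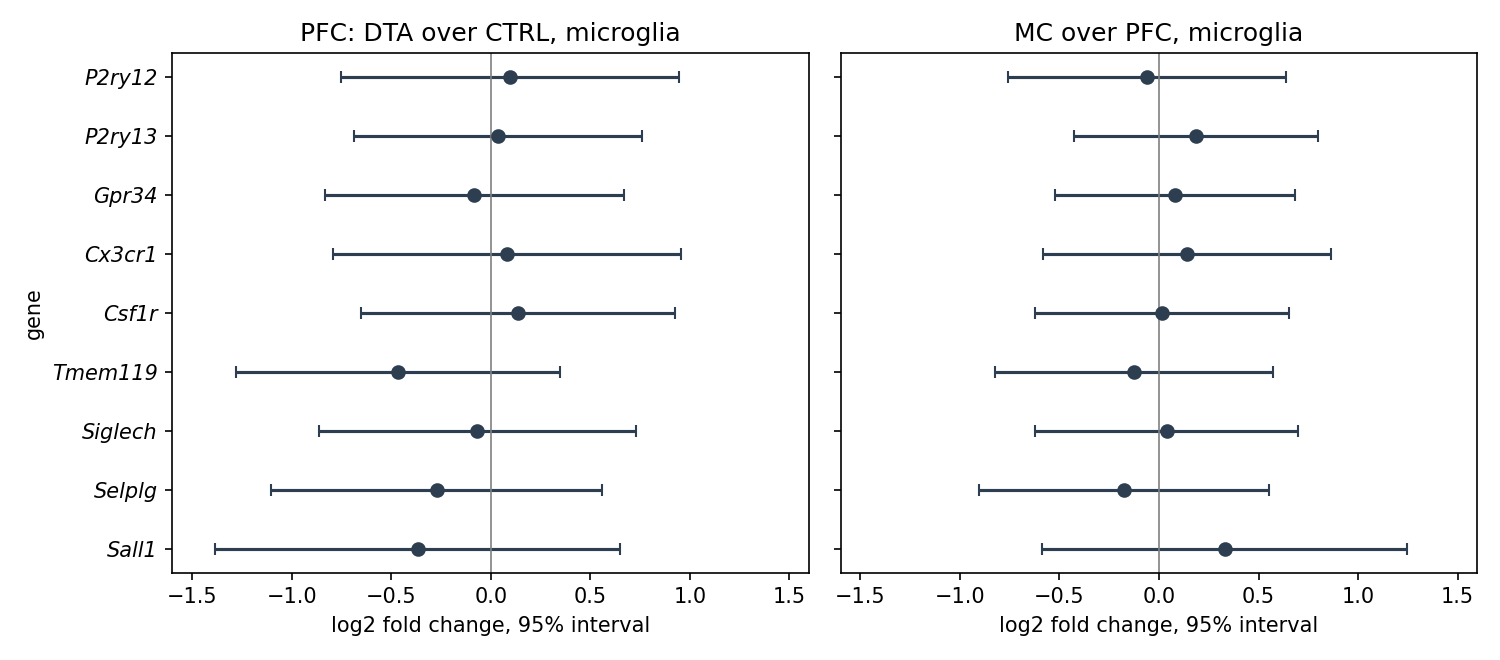
Log2 fold change of each member in microglia with its 95% interval from edgeR, for DTA over CTRL in the PFC and for MC over PFC. Every interval crosses 0, and the values run from -0.47 (Tmem119) to 0.14 (Csf1r) for genotype and from -0.18 (Selplg) to 0.33 (Sall1) for area.

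In PFC perivascular macrophages only Cx3cr1 and Csf1r passed the filter on low counts. edgeR called 0 of 758 genes (0%), with 21 at an unadjusted p under 0.05, and DESeq2 called 0. Csf1r averaged 1438 ± 176 CPM in DTA and 1215 ± 86.7 CPM in CTRL (SD, n = 3 and 2), and a log2 fold change of 0.24 (-0.47 to 0.95). Every DTA library lay above both CTRL libraries, as in 41 of the 758 genes (5.41%), while 62 genes (8.18%) and 0 members lay the other way. Cx3cr1 averaged 233 ± 109.6 CPM in DTA and 172 ± 37.3 CPM in CTRL (log2 0.12, -1.21 to 1.44).

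Whether genotype acted differently in the 2 classes was tested in 1 fit. edgeR called 2 of 2892 genes (0.0692%), 90 had an unadjusted p under 0.05, and 0 of the 9 members were called. Both called genes, Sgk1 and Slc1a3, were named after their values were seen, and both had no UMI in all 3 DTA libraries of perivascular macrophages. For P2ry12 the DTA effect differed by log2 0.68 (SE 0.53), microglia minus perivascular macrophages. The difference was 0.72 (SE 0.58) for Gpr34, 0.56 (SE 0.70) for P2ry13, 0.16 (SE 0.53) for Cx3cr1, -0.017 (SE 0.59) for Siglech and -0.028 (SE 0.34) for Csf1r. P2ry12, Gpr34, P2ry13 and Siglech did not pass the filter in PFC perivascular macrophages alone. Their differences rest on 1 to 22 UMIs per library of that class. Tmem119, Selplg and Sall1 rest there on perivascular macrophage libraries without a UMI.

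Between the areas, edgeR with genotype as a term called 0 of 7428 genes in microglia (0%), with 91 at an unadjusted p under 0.05, and DESeq2 called 0. Of the members, 6 were fitted higher and 3 lower in MC, with a median log2 fold change of 0.039 against -0.022 over all genes. P2ry12 averaged 2879 ± 841 CPM in MC and 2967 ± 546 CPM in PFC (SD, n = 2 and 5), a log2 fold change of -0.061 (-0.76 to 0.64). Sall1 averaged 170.0 ± 15.5 CPM in MC and 136 ± 53.0 CPM in PFC (log2 0.33, -0.59 to 1.24). Selplg averaged 1905 ± 464 CPM in MC and 2133 ± 546 CPM in PFC (log2 -0.18, -0.90 to 0.55). Tmem119 averaged 1341 ± 96.5 CPM in MC and 1453 ± 450 CPM in PFC (log2 -0.13, -0.82 to 0.57). Of the receptors, P2ry13 averaged 334 ± 78.1 CPM in MC and 293 ± 59.4 CPM in PFC (log2 0.19), and Gpr34 1380 ± 23.7 CPM in MC and 1286 ± 191 CPM in PFC (log2 0.080). Cx3cr1 averaged 1131 ± 274 CPM in MC and 1012 ± 272 CPM in PFC (log2 0.14), and Csf1r 2318 ± 588 CPM in MC and 2279 ± 280 CPM in PFC (log2 0.013). Siglech averaged 902 ± 129 CPM in MC and 868 ± 197 CPM in PFC (log2 0.039). The areas overlapped for all 9 members. The share of all 7428 genes that did so was not counted, so whether the overlap is particular to the members cannot be said.

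The related lists had 0 called genes between areas. In microglia, 6 of 20 signature genes were higher and 14 lower in MC, 7 of 8 lineage factors were higher and 1 lower, and 7 of 7 disease-associated genes were lower (median log2 -0.62). Cst7, a cystatin of that list, had a log2 fold change of -1.11 (SE 0.47, edgeR adjusted p = 1). Its level was low, at 10.3 CPM in MC CTRL, 11.0 CPM in MC DTA and 13.2 to 35.0 CPM in PFC. The highest of these was that of PFC DTA replicate 3. Csf1 (206 CPM), Ctsb (2211 CPM) and Ctsl (943 CPM) of that list were also highest there, while Apoe and Ccl6 were highest in other PFC libraries. These list counts hold that library, and the share of all genes in each direction is not given beside them. The median log2 fold change over all genes was -0.022. In perivascular macrophages edgeR called 0 of 827 genes (0%), with 20 at an unadjusted p under 0.05, and DESeq2 called 0. Csf1r stood at log2 -0.075 and Cx3cr1 at -0.081 there. In a fit of area by class, edgeR called 0 of 4251 genes (0%, with 125 at an unadjusted p under 0.05), and of the members Tmem119 had the smallest p (0.0308 in edgeR, adjusted p = 1), with no UMI in either MC perivascular macrophage library.

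In the MC, each genotype had 1 library, so its values carry counting error only and no replicate check. All 9 members were higher in MC DTA microglia than in MC CTRL microglia, but 0 of them reached 2-fold, as 803 of 6817 genes did (11.8%). The share of all genes higher in MC DTA is not given here, so the direction is not read as particular to the members. P2ry12 had 3474 CPM in MC DTA and 2284 CPM in MC CTRL, a TMM-scaled ratio of 1.73 (1.61 to 1.85). Csf1r had 2734 CPM in MC DTA and 1903 CPM in MC CTRL (1.63, 1.51 to 1.76). Gpr34 had 1397 CPM in MC DTA and 1364 CPM in MC CTRL (1.16, 1.06 to 1.28), and Sall1 had 181 CPM in MC DTA and 159 CPM in MC CTRL (1.29, 0.982 to 1.70, an interval that holds 1). The DTA library was deep and the CTRL library shallow, with median microglial depths of 3024.5 and 1410.5 UMIs, and neuronal markers summed to 137 CPM in DTA and 379.8 CPM in CTRL microglia, so genotype and depth cannot be told apart. Of the other members, Selplg had 2233 CPM in MC DTA and 1577 CPM in MC CTRL (1.61, 1.48 to 1.74), Cx3cr1 1324 and 938 CPM (1.603, 1.44 to 1.78) and P2ry13 389 and 279 CPM (1.58, 1.30 to 1.93). Siglech had 994 CPM in MC DTA and 811 CPM in MC CTRL (1.39, 1.24 to 1.56), and Tmem119 1409 and 1273 CPM (1.26, 1.14 to 1.38). In MC perivascular macrophages the ratio of Csf1r was 0.919 (0.621 to 1.34).

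The 2 microglial clusters were unevenly spread over the libraries. The second cluster held 2.16, 82.6 and 55.7% of microglia in PFC DTA, 74.4 and 2.74% in PFC CTRL, 83.3% in MC DTA and 2.22% in MC CTRL. In the 4 libraries with at least 20 cells of each, its cells were higher in Cx3cr1 by 0.69 ± 0.22 on the log2 scale, in Tmem119 by 0.55 ± 0.15 and in P2ry12 by 0.54 ± 0.18 (SD). Csf1r (0.20 ± 0.21), P2ry13 (0.094 ± 0.39) and Sall1 (-0.0088 ± 0.47) differed by less than their SD. Selplg (0.37 ± 0.21), Siglech (0.34 ± 0.25) and Gpr34 (0.28 ± 0.26) lay between. Its median depth in these libraries was 1985.5 to 3466 UMIs per cell, against 963 to 1729.5 in the other cluster, and neuronal markers summed there to 93.7 and 179 CPM in PFC DTA replicates 2 and 3, 54.7 CPM in PFC CTRL replicate 1 and 121 CPM in MC DTA. The other cluster had 78.6 and 851, 128 and 306 CPM in the same libraries. Activation and dissociation genes summed in the second and the other cluster to 47088 and 26082 CPM in PFC DTA replicate 3. These sums were 17664 and 17995 CPM in PFC DTA replicate 2, and 9872 and 11563 CPM in PFC CTRL replicate 1. They were 18939 and 17072 CPM in MC DTA. In the same order of libraries, member sums were 10926 and 7548, 12978 and 11489, 17057 and 11852, and 14386 and 11451 CPM. The part of depth, activation and neuronal RNA in the members' differences was not tested.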

How the data were processed

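Droplet libraries (10x Genomics 3′ V2) were made from dissociated PFC and MC, per the labels' protocols. The authors deposited raw UMI counts per gene and cell. Cell Ranger 3.0.2, Seurat and mm10 are named in the submitters' processing notes, with no role given. Libraries held 6180059 to 30972905 UMIs. Scrublet calls were removed (23 to 443 cells per library). For PFC DTA replicate 3, where automatic calls fell under 0.5% of cells, the top 0.8% per 1000 cells were taken. Cells were clustered together (scanpy 1.11.5, leidenalg 0.10.2, 2000 variable genes, 30 components, resolution 1) and named from markers of 19 classes. A cluster whose second class passed a level of 0.45 stayed unnamed, a limit set after clusters were seen. Counts summed per library and class were tested with edgeR 4.0.16 (TMM, filterByExpr at 10 counts, robust quasi-likelihood, Benjamini-Hochberg over all genes, threshold 0.05). DESeq2 1.42.0 was the second tool. Scripts were tested on simulated data. Members, lists and tests were chosen with earlier results of these data known. The 9 members are named in the comparisons of class, genotype and area in microglia, the fits in perivascular macrophages and by class name those that counts allow, and other lists give their genes with the smallest p or the highest mean. A few genes that this rule selects were left out of the text. Alternatives were other size factors, no filter, doublets kept, other class definitions, a replicate block, a depth term and each library left out. Leaving out PFC DTA replicate 3 for the lists and counting shares over named cells were chosen after seeing the data.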

Additional observations from a re-analysis of the deposited data

How the results depend on the processing

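In the fits by genotype, area and their products with class, 0 members passed the threshold under every alternative run, and 7 or 8 members were at least 2-fold higher in microglia with libraries apart. Counts of called genes moved: 6 for genotype and 1 for area in microglia with no filter on low counts. For genotype by class they were 1 with RLE size factors, 0 with no filter and 0 with classes from marker UMIs, and 2 for area by class with RLE. Leaving out single libraries gave 0 to 3 for genotype in perivascular macrophages (3 without PFC CTRL replicate 1, 2 without PFC DTA replicate 1) and 0 to 2 for genotype by class (0 without PFC CTRL replicate 2 or any PFC DTA library). The causes were not tested.

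The labels tie replicate numbers to no shared litter or day, so the numbers were not taken as pairs. Same-numbered libraries correlated at 0.19 (replicate 1) and -0.23 (replicate 2), but with 2 CTRL libraries centred on their mean, a DTA library's correlations with both are equal and opposite by construction, so they do not settle pairing. With a replicate block, 1 gene was called for genotype in perivascular macrophages, and in microglia the log2 fold change changed sign for Gpr34 (0.063), Sall1 (0.10) and Siglech (0.13).

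Other sign changes were of members that had not passed a test. For genotype in microglia, Gpr34 was 0.037 and Siglech 0.018 with doublets kept, Gpr34 0.043 and Siglech 0.057 in clusters built with the members, and Siglech 0.017 with classes from marker UMIs and 0.063 with a depth term. For area in microglia, P2ry12 was 0.10 and Tmem119 0.038 with doublets kept, and Csf1r -0.00053 with classes from marker UMIs and -0.026 with a depth term. For area in perivascular macrophages, Csf1r was 0.015 and Cx3cr1 0.027 with doublets kept. For genotype by class, Csf1r and Siglech were 0.038 and 0.024 with no filter, 0.063 and 0.14 with doublets kept and 0.032 and 0.15 with classes from marker UMIs, and Csf1r was 0.0015 in clusters built with the members. For area by class Csf1r was -0.17 with classes from marker UMIs. The share of cells (DTA minus CTRL) was -1.93 points for P2ry13 at 500 UMIs and -0.0258 for Csf1r with no thinning.

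Leaving out each library in turn gave these ranges of log2 fold change. Genotype in microglia: Csf1r -0.15 to 0.60, Cx3cr1 -0.34 to 0.78, Gpr34 -0.30 to 0.29, P2ry12 -0.25 to 0.66, P2ry13 -0.37 to 0.66, Sall1 -0.67 to 0.078, Selplg -0.63 to 0.31, Siglech -0.45 to 0.56, Tmem119 -0.80 to 0.066. Genotype in perivascular macrophages: Cx3cr1 -0.12 to 0.57. Area in microglia: Csf1r -0.27 to 0.24, Cx3cr1 -0.16 to 0.43, Gpr34 -0.049 to 0.22, P2ry12 -0.41 to 0.22, P2ry13 -0.13 to 0.45, Sall1 -0.043 to 0.63, Selplg -0.68 to 0.22, Siglech -0.23 to 0.30, Tmem119 -0.53 to 0.20. Area in perivascular macrophages: Csf1r -0.076 to 0.015, Cx3cr1 -0.47 to 0.42. Genotype by class: Csf1r -0.44 to 0.29, Cx3cr1 -0.99 to 0.68, Gpr34 -0.45 to 2.49, P2ry13 -0.058 to 1.15, Sall1 -1.004 to 4.36, Selplg -6.12 to 6.75, Siglech -0.998 to 0.39, Tmem119 -5.78 to 1.54. Area by class: Csf1r -0.25 to 0.36, Cx3cr1 -0.15 to 0.57, P2ry13 -0.36 to 0.0092, Selplg -1.24 to 6.14. Where this leaves 1 library in a group, that library is assumed to vary like the others.

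With library totals in place of TMM, the MC log2 ratios in microglia were 0.61 for P2ry12 and 0.035 for Gpr34. In perivascular macrophages, 3 to 492 UMIs per member limit what could be seen.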

Other observations

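2 ligands of the members were highest outside both macrophage classes. Il34, a ligand of CSF1R, was highest in pericytes (333 ± 70.0 CPM, SD, n = 7 libraries), and Cx3cl1, which encodes fractalkine, in excitatory neurons (532 ± 87.4 CPM). Csf1 had 41.6 ± 72.8 CPM in microglia and no UMI in perivascular macrophages, with 206 CPM in PFC DTA replicate 3 and 5.94 to 19.9 CPM in the other 6 libraries. Tgfb1 had 336 ± 77.4 CPM in microglia and 225 ± 63.9 CPM in perivascular macrophages.

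Whether the genotype effect in microglia differed between MC and PFC was tested after the data were seen. Each genotype has 1 MC library, so the PFC libraries alone give the spread and those of MC are assumed to vary alike. edgeR called 0 of 8444 genes, with 64 at an unadjusted p under 0.05, and 0 of the 9 members. The DTA effect in MC minus that in PFC was log2 0.90 (SE 0.71) for Selplg and 0.74 (SE 0.69) for Tmem119 (edgeR adjusted p = 1 each).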
